A study of Mus musculus with 18 samples.

Results

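The tropomyosin genes were followed in mouse osteoclast cultures: Tpm1, Tpm2, Tpm3 and Tpm4, which encode the classical tropomyosins, and Tpm3-rs7, a sequence derived from Tpm3. They were taken by gene name and make up 5 of the 34745 genes in the table. They were chosen by the measured counts of Tpm3 and Tpm3-rs7, which lay at opposite levels under the genotype labels, so differences between the labels are given as a description and were not tested. Changes over the days of RANKL, and their difference between the labels, were tested.

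The cells were bone marrow-derived macrophages (BMDMs), grown from mouse marrow with the growth factor M-CSF and then given RANKL, the cytokine that drives their fusion into bone-resorbing osteoclasts. The marrow came from young Zmat1 knockout mice (labelled KO), which lack the gene in every cell rather than in one lineage, and from their wild-type littermates (labelled WT), on a C57BL/6 background. All groups received M-CSF. The 18 libraries formed 6 groups of 3: WT and KO without RANKL (day 0), with RANKL for 1 day, and with RANKL for 3 days. No label says whether the 3 libraries of a group came from separate mice, so the p-values measure the spread between libraries.

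Total counts ran from 13789775 to 17559958 per library. The targeted gene, Zmat1, did not separate the labels: it had 49 to 99 counts in the libraries labelled KO on day 0 and 32 to 91 in those labelled WT. On day 1 it had 63 to 93 counts in KO and 48 to 64 in WT, and on day 3 76 to 95 and 39 to 80. The paper reports checks of the mice by PCR genotyping and of Zmat1 mRNA in BMDMs by qPCR. Genotypes are therefore given as labelled. Of the titles, 5 were written with a double hyphen (libraries of days 0 and 1 of both labels) and 13 with a single one, and 2 of the WT day 1 libraries carry the number 1. The labels do not say what the style of a title stands for. The styles differed in measured content: erythroid markers, among them the globin gene Hbb-bs, summed to at most 0.33 CPM in every double-hyphen library. In every single-hyphen library they summed to at least 12.5 CPM. Macrophage and osteoclast markers followed the days, with the M-CSF receptor gene Csf1r at 5753 ± 1576 CPM on WT day 0 and 1460 ± 223 on WT day 3, and the protease gene Ctsk at 19.0 ± 10.3 and 4776 ± 1016 (mean ± SD, n = 3). CPM are counts relative to library size, which is scaled here by TMM (trimmed mean of M values), which sets the bulk of genes equal between libraries.

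Tropomyosins are coiled-coil proteins that lie end to end along actin filaments and set which myosins and severing proteins can reach them. Alternative starts and exons yield long and short proteins, though not every gene makes both. Tpm1 and Tpm2 are known for muscle and stress fibres, while Tpm3 and Tpm4 supply the cytoskeletal tropomyosins of most other cells. Osteoclasts depend on actin, which they arrange into podosomes and the sealing zone on bone.

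On GRCm38 Tpm1 (ENSMUSG00000032366) lies at chr9:67022590-67049406 and Tpm2 (ENSMUSG00000028464) at chr4:43514711-43523765, both on the minus strand, and Tpm4 (ENSMUSG00000031799) at chr8:72134975-72153142 on the plus strand. Tpm3-rs7 (ENSMUSG00000058126) is a near-complete copy of a spliced transcript of Tpm3 (ENSMUSG00000027940). In the deposited table and on GRCm38, Tpm3 lies on the plus strand at chr3:90072649-90100902 and Tpm3-rs7 on the plus strand at chr14:113314608-113316713. The GENCODE vM21 annotation gives Tpm3 16 transcripts and Tpm3-rs7 1 transcript made of 1 exon, with an open coding sequence. Against the short Tpm3 transcript (ENSMUST00000029549), which has 8 exons, the copy aligned over 2102 bases with 13 mismatches and 3 gaps, an identity of 99.38%. Their coding sequences, 747 bases each, differed at 3 positions, G72A, G98A and G127A (the Tpm3 base, its position from 1 at the A of the start codon, then the base of the copy). The 3 differences lie in the first coding exon, and the other end of the coding sequence was identical over a run of 620 bases. Coding bases 52 to 147 of both genes are shown because they hold every coding difference, in capitals:
Tpm3: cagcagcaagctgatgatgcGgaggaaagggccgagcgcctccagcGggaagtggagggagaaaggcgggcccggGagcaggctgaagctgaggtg
Tpm3-rs7: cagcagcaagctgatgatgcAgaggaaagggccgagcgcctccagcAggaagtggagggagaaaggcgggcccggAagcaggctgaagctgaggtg

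Reads from long stretches of this copy could have come from either gene, the more so the shorter the read, and no read length is given in the sources used here. Of all stretches of 100 bases in the Tpm3-rs7 transcript, 49.8% occur without a difference in a Tpm3 transcript, as do 69.4% of the stretches of 50 bases and 33.8% of those of 150 bases. How the authors assigned such reads is not given in the sources used here, so the counts of each gene alone are uncertain and their sum was analysed beside them. The other tropomyosins are not affected in this way, as a stretch of 80 coding bases (301 to 380 from the start codon of that transcript) shows, with bases that differ from Tpm3 in capitals:
Tpm3: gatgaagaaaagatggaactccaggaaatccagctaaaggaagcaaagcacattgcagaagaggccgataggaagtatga
Tpm3-rs7: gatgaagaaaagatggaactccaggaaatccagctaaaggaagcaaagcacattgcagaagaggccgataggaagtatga
Tpm1: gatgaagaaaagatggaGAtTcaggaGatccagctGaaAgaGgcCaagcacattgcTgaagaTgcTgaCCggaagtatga
Tpm2: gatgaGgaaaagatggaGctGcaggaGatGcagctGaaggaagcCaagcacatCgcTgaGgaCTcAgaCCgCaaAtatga
Tpm4: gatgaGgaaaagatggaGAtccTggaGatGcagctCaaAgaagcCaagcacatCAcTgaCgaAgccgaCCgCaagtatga
In this stretch Tpm1 differed from Tpm3 at 13 bases, and Tpm2 and Tpm4 each at 17. The longest run that Tpm3-rs7 shared exactly with a transcript of Tpm1 was 21 bases, with Tpm2 17 bases and with Tpm4 32 bases, against 628 bases with Tpm3.

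The libraries of either label split the counts of this pair in opposite ways. On day 0 Tpm3 stood at 126, 122 and 185 CPM in the 3 WT libraries and at 449, 506 and 451 CPM in the 3 KO libraries. Tpm3-rs7 stood at 527, 372 and 514 CPM in the same WT libraries and at 139, 157 and 137 CPM in the KO libraries. So the WT libraries were low in Tpm3 and high in its copy, the KO libraries were the reverse, and in neither gene did the labels overlap.

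The sum of both genes showed no such split. On day 0 it was 654, 494 and 699 CPM in the WT libraries and 589, 663 and 588 CPM in the KO libraries, so that the KO values lay inside the WT range. The group means were 616 ± 108 CPM for WT and 613 ± 43.0 for KO on day 0, 607 ± 52.5 and 597 ± 80.4 on day 1, and 391 ± 13.0 and 405 ± 37.8 on day 3. The log2 difference of KO from WT was 1.70, 1.91 and 1.91 for Tpm3 on days 0, 1 and 3, and -1.71, -1.73 and -1.55 for Tpm3-rs7. For the sum it was -0.01, -0.02 and 0.05. The equality holds for counts, in which a read of either gene weighs the same. In FPKM a read of Tpm3-rs7 weighs 5.59 times as much as one of Tpm3, and the FPKM sum differed by -1.07, -1.17 and -1.07 on these days (log2(FPKM + 1)). Within the single-hyphen libraries the difference of the count sum was -0.23 on day 1, where KO had 1 library. These values describe the contrast by which the genes were chosen and carry no test.

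**Figure D1:**
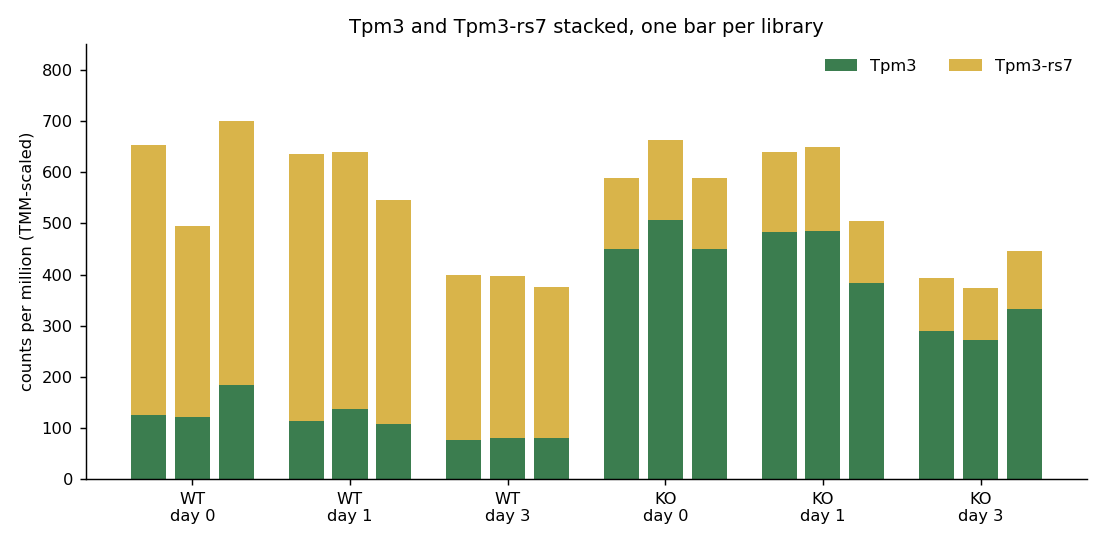
Bars give TMM-scaled CPM of Tpm3 (green) and Tpm3-rs7 (yellow) stacked in each of the 18 libraries, 3 per group of label and day of RANKL. The WT bars are mostly Tpm3-rs7 and the KO bars mostly Tpm3, while the full heights lie between 494 and 699 on days 0 and 1 and between 373 and 447 on day 3.

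Tpm3 made up 23.5% ± 3.70 of the summed counts on WT day 0, 19.8% ± 1.81 on WT day 1 and 20.2% ± 1.09 on WT day 3 (mean ± SD, n = 3). In the KO groups it made up 76.4% ± 0.161, 75.4% ± 0.602 and 73.6% ± 0.718. The share was lowest among all libraries in a WT day 1 library, 17.9% (95% Wilson interval 17.1 to 18.8%, 7629 summed counts), and highest in a KO day 0 library, 76.6% (75.7 to 77.5%, 8076 summed counts). These intervals cover counting error alone. The WT day 0 libraries, at 19.3%, 24.8% and 26.4%, were spread wider than the intervals, and the double-hyphen library was the lowest of them. The KO day 3 libraries, between 72.9% and 74.3%, lay below the KO day 0 libraries, between 76.3% and 76.6%, and the KO day 1 libraries lay from 74.7% to 75.8%.

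**Figure D2:**
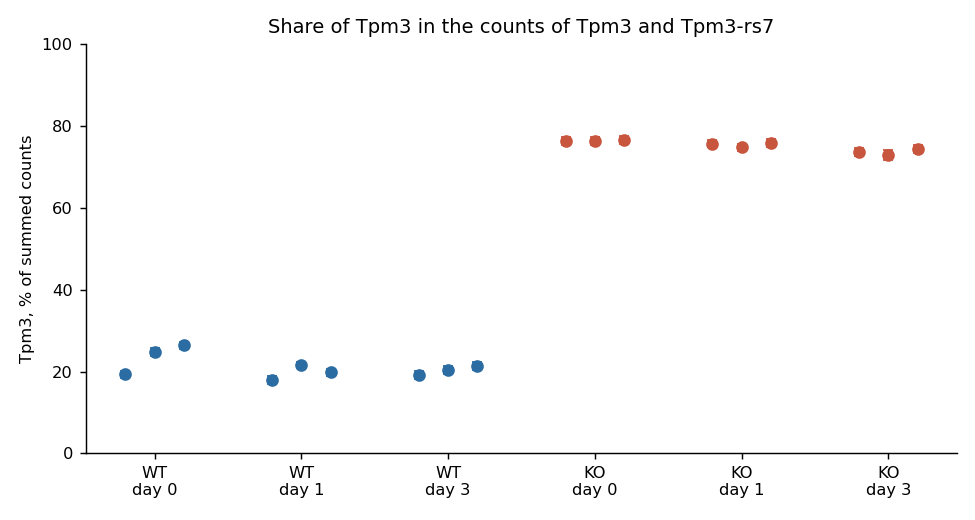
Points give Tpm3 as a percentage of the summed counts of Tpm3 and Tpm3-rs7 in each library, with 95% Wilson intervals, by label and day of RANKL. The WT libraries lie between 17.9% and 26.4% and the KO libraries between 72.9% and 76.6%, with no library in between.

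Among all 14241 genes that passed the filter on low counts, 0.176% (25 genes) separated the 9 KO from the 9 WT libraries without overlap over the days, and Tpm3 and Tpm3-rs7 were 2 of them. Tpm1, Tpm2, Tpm4 and the sum overlapped. Of the 60 tested genes within 1 Mb of Tpm3, 0 separated the labels in this way, and no tested gene lay within 1 Mb of Tpm3-rs7. Outside that window, 5830417I10Rik, 1500004A13Rik, Cgn and Tmod4 on the chromosome of Tpm3 did.

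Compared per length, Tpm4 and Tpm3-rs7 carried the highest levels of the family. In the deposited FPKM (counts scaled by length and library size) of WT day 0, Tpm3-rs7 was at 203 ± 34.7, Tpm4 at 110 ± 66.3, Tpm3 at 11.2 ± 3.14, Tpm1 at 5.78 ± 5.33 and Tpm2 at 5.52 ± 6.92 (n = 3). The ranges of Tpm3-rs7 and Tpm4 overlapped there, as did those of Tpm1 and Tpm2. On KO day 0 the order was Tpm4 (148 ± 28.9), Tpm3-rs7 (63.6 ± 0.536), Tpm3 (36.9 ± 0.0199), Tpm2 (9.49 ± 3.84) and Tpm1 (8.68 ± 3.68), with overlap between the last pair.

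On day 3 Tpm4 led under both labels, at 363 ± 41.6 FPKM in WT and 464 ± 22.7 in KO, and Tpm3 was last, at 7.88 ± 0.294 and 28.7 ± 1.95. On WT day 1, where Tpm3-rs7 led with 219 ± 22.8 FPKM, Tpm4 had 143 ± 45.8, Tpm3 9.72 ± 2.10, Tpm2 7.26 ± 4.99 and Tpm1 7.09 ± 3.82. On KO day 1 the levels were 187 ± 45.5 for Tpm4, 64.9 ± 4.22 for Tpm3-rs7, 35.6 ± 1.44 for Tpm3, 11.7 ± 5.47 for Tpm2 and 10.2 ± 3.74 for Tpm1. The places of Tpm3-rs7 and Tpm3 in these orders rest on how shared reads were split.

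The length used by the authors also moves the order. The deposited FPKM were equal to counts divided by a fixed length and the total count, and this length was 16538 bases for Tpm1, 11776 for Tpm3 and 5566 for Tpm2, against 6485, 6085 and 2909 bases of exon in the annotation. For Tpm4 (2235 against 2203 bases) and Tpm3-rs7 (2106 against 2147 bases) the lengths nearly coincided. With the annotated exon length, Tpm3 (71.4 ± 0.0385 counts scaled in the same way) rather than Tpm3-rs7 (62.4 ± 0.526) was next to Tpm4 on KO day 0. On KO day 3 Tpm1 (94.7 ± 5.40) and Tpm2 (93.4 ± 8.81) then stood above both.

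Between day 0 and day 3 of RANKL, Tpm1, Tpm2 and Tpm4 rose and Tpm3 and Tpm3-rs7 fell under both labels. All 5 genes were called, that is, they had an adjusted p under 0.05, in WT and in KO, where 50.2% and 42.5% of all tested genes were called. At these shares a call alone says little about the family, so its levels are given in full.

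Tpm1, whose products are abundant in muscle and on stress fibres, stood at 40.8, 59.1 and 208 CPM in the WT libraries of day 0 and at 273, 399 and 327 CPM in those of day 3. In KO it stood at 202, 89.3 and 164 CPM on day 0 and at 493, 532 and 597 CPM on day 3. Each day 3 library was above each day 0 library of its label, a separation shown by 62.5% of all genes in WT and 58.8% in KO. The log2 fold change was 1.70 in WT (SE 0.52, adjusted p = 0.0143, edgeR quasi-likelihood test) and 1.83 in KO (SE 0.52, adjusted p = 0.0119).

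Tpm2, the gene of beta-tropomyosin, stood at 6.43, 12.4 and 79.2 CPM on WT day 0 and at 118, 211 and 109 CPM on WT day 3. In KO it stood at 66.2, 32.8 and 68.7 CPM on day 0 and at 211, 233 and 275 CPM on day 3. It had the largest fold change of the family and the largest error, with one WT day 0 library at more than 6 times the level of either other. Its log2 fold change was 2.15 in WT (SE 0.76, adjusted p = 0.0287) and 2.10 in KO (SE 0.75, adjusted p = 0.0360).

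Tpm4, a short cytoskeletal tropomyosin of blood and other non-muscle cells, stood at 186, 172 and 439 CPM on WT day 0 and at 650, 802 and 628 CPM on WT day 3. In KO it stood at 402, 304 and 354 CPM on day 0 and at 838, 902 and 998 CPM on day 3. The day 3 libraries were again above the day 0 libraries of the same label without overlap. The log2 fold change was 1.38 in WT (SE 0.29, adjusted p = 0.00156) and 1.37 in KO (SE 0.29, adjusted p = 0.00237). Tpm4 overlaps 2 noncoding genes on the opposite strand, and whether counting used strand is not given in the sources used here.

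Leaving out single libraries ended some of these calls. Tpm2 was not called in WT without day 0 library 1 (log2 fold change 1.70, adjusted p = 0.0782), day 0 library 2 (1.80, 0.0982) or day 3 library 2 (1.79, 0.0901), and in KO it was not called without any one of the 6 libraries (1.85 to 2.31, adjusted p 0.0571 to 0.115). Tpm1 was not called in WT without day 0 library 2 (1.46, 0.0586), or in KO without day 0 library 2 (1.59, 0.0501). Without WT day 0 library 3, the highest of its group in these 3 genes, the WT fold changes were larger: 2.76 for Tpm1 (adjusted p = 0.000259), 3.98 for Tpm2 (0.000367) and 1.98 for Tpm4 (2.52e-05). Tpm4 kept its call under every alternative for day 3 against day 0, and within the single-hyphen libraries Tpm1, Tpm2 and Tpm4 were called under both labels.

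**Figure D3:**
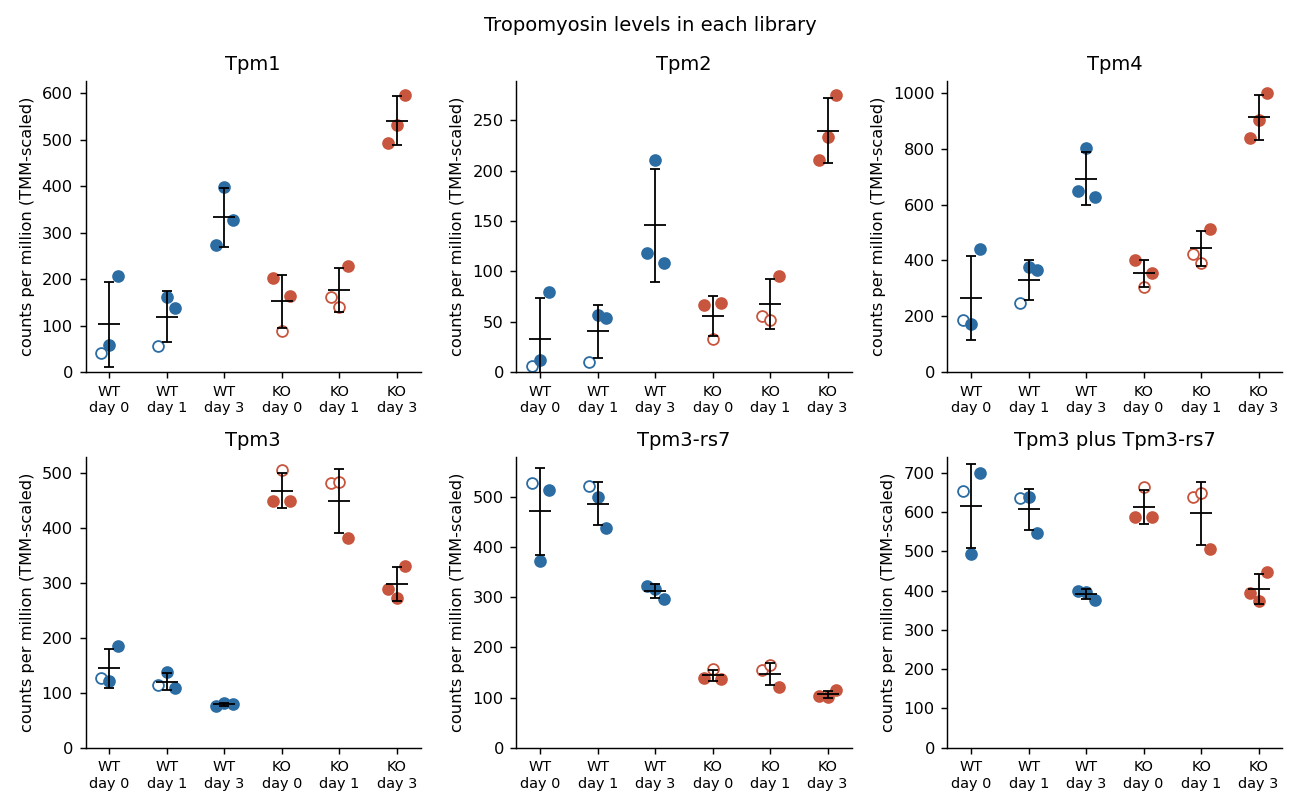
Points give TMM-scaled CPM of each tropomyosin gene and of the sum of Tpm3 and Tpm3-rs7 in each library, with mean and SD per group. Open points are libraries with a double hyphen in the title. Tpm1, Tpm2 and Tpm4 are highest on day 3, and Tpm3 and Tpm3-rs7 lie at opposite levels in WT and KO while their sum does not.

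Tpm3 fell to 76.5, 80.7 and 80.2 CPM on WT day 3 and to 290, 272 and 332 CPM on KO day 3. The log2 fold change against day 0 was -0.87 in WT (SE 0.16, adjusted p = 0.000560) and -0.65 in KO (SE 0.16, adjusted p = 0.00501). Tpm3-rs7 fell to 323, 317 and 296 CPM on WT day 3 and to 104, 101 and 115 CPM on KO day 3. Its log2 fold change was -0.59 in WT (SE 0.14, adjusted p = 0.00386) and -0.44 in KO (SE 0.15, adjusted p = 0.0253). Day 3 libraries were below day 0 libraries of the same label in each case.

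Provided that shared reads were neither dropped nor counted in both genes, the sum does not depend on how reads were split between them. Whether that was so is not given in the sources used here. The sum fell to 400, 398 and 376 CPM on WT day 3 and to 394, 373 and 447 CPM on KO day 3. The log2 fold change was -0.65 in WT (SE 0.15, adjusted p = 0.00213) and -0.60 in KO (SE 0.15, adjusted p = 0.00493). Both labels thus reached about the same summed level, and the day 0 level was 1.57 times the day 3 level in WT and 1.52 times in KO.

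These falls are relative to the bulk of genes. When libraries were scaled by total counts instead, the median log2 fold change of all tested genes moved from -0.03 to 0.33 in WT and from -0.01 to 0.29 in KO. The sum then changed by -0.29 (adjusted p = 0.0755) in WT and -0.31 (adjusted p = 0.0686) in KO, and stood 0.62 and 0.59 below the median gene. On the TMM scale it stood 0.62 and 0.59 below the median gene as well. The call of Tpm3-rs7 in KO had a narrow margin, and leaving out day 0 library 2 (-0.35), day 3 library 1 (-0.42, adjusted p = 0.0727) or day 3 library 2 (-0.40, adjusted p = 0.0848) ended it, as did keeping to the single-hyphen libraries (-0.32, adjusted p = 0.0889).

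**Figure D4:**
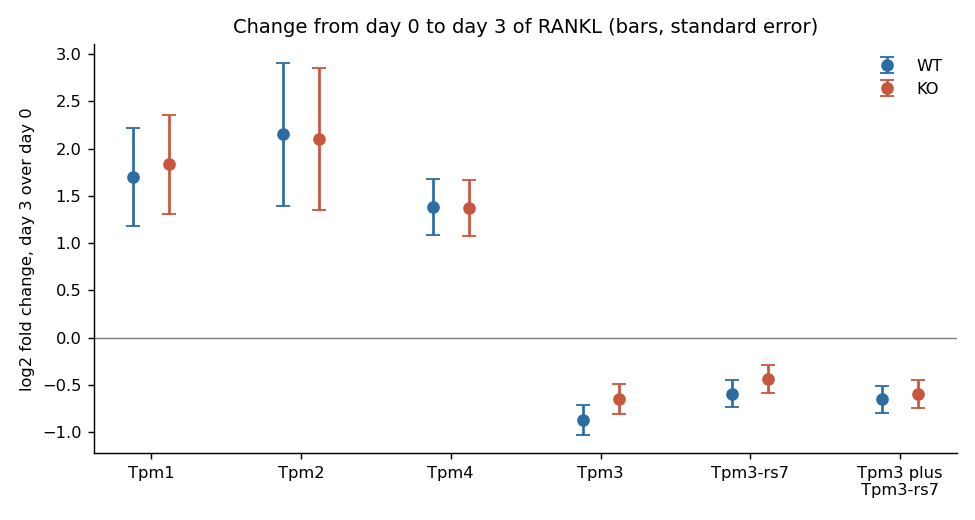
Points give the log2 fold change from day 0 to day 3 of RANKL, with the standard error as bars, for WT (blue) and KO (red). Tpm1, Tpm2 and Tpm4 lie above 0 and Tpm3, Tpm3-rs7 and their sum below 0 under both labels.

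After 1 day of RANKL no member had changed detectably. In WT, 0 of the 5 were called, at 2.35% of all genes, and in KO 0 of the 5, at 0.0211%. At an unadjusted p under 0.05 the counts were also 0, and DESeq2 and limma called 0. Without WT day 0 library 3, Tpm4 was called in WT. On day 1 the mean of Tpm4 was 330 ± 71.7 CPM in WT and 443 ± 62.9 in KO, that of Tpm1 119 ± 55.2 and 177 ± 46.7, and that of Tpm2 40.4 ± 26.0 and 67.6 ± 24.6. Tpm3 was at 120 ± 15.5 CPM in WT and 450 ± 58.4 in KO, and Tpm3-rs7 at 487 ± 43.7 and 147 ± 22.2.

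The differences between day 1 and day 3 were larger. Here 4 of the 5 genes were called in WT, where 32% of all genes were, and 4 of the 5 in KO, where 28% were. Tpm1 changed by 1.49 in WT (adjusted p = 0.0401) and 1.61 in KO (adjusted p = 0.0309) on the log2 scale, and Tpm4 by 1.07 (adjusted p = 0.0128) and 1.04 (adjusted p = 0.0169). Tpm2 did not pass the test, with values of 1.85 in WT (adjusted p = 0.0716) and 1.83 in KO (adjusted p = 0.0794). Other tools called it: DESeq2 gave adjusted p = 0.0247 in WT and 0.0303 in KO, and limma on log2(FPKM + 1) gave 0.0200 and 0.0254. The sum of Tpm3 and Tpm3-rs7 fell by 0.63 in WT (adjusted p = 0.00496) and by 0.56 in KO (adjusted p = 0.0112).

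Several of these calls had a narrow margin. The call of Tpm1 in WT was lost with the replicate number as a block (1.30, adjusted p = 0.0647) and on leaving out 5 of the 6 libraries one at a time (log2 fold change 1.17 to 1.61, adjusted p 0.0570 to 0.140), and in KO it was also lost without 5 of the 6 (1.49 to 1.68, 0.0558 to 0.110).

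With 1 library left out at a time in KO, the log2 fold change ranged from 1.49 to 1.88 for Tpm1 and from 0.97 to 1.19 for Tpm4. Without day 1 library 1, for example, Tpm4 stood at 1.04 (adjusted p = 0.0566), Tpm1 at 1.57 (0.0962) and the sum at -0.49 (0.0559). The count of called members was 0 when either KO day 1 library with a double hyphen (numbers 1 and 2) was left out. It was 2 when KO day 3 library 1 was left out, 1 when KO day 3 library 2 was, and 1 (Tpm3) with the title style as a covariate. That covariate also lowered the KO fold changes, to 0.83 for Tpm1, 0.73 for Tpm4 and -0.29 for Tpm3-rs7. In the main fit they were 1.61, 1.04 and -0.47. Within the single-hyphen libraries, where KO day 1 had 1 library, they were 1.27 for Tpm1, 0.87 for Tpm4 and -0.16 for Tpm3-rs7. In WT the count was 2 (Tpm3 and Tpm3-rs7) without the double-hyphen day 1 library.

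The response to RANKL was not shown to differ between the labels. For the change from day 0 to day 3, the KO minus WT difference of the log2 fold changes was 0.13 for Tpm1 (SE 0.71), -0.05 for Tpm2 (SE 1.02), -0.02 for Tpm4 (SE 0.41), 0.22 for Tpm3 (SE 0.22), 0.15 for Tpm3-rs7 (SE 0.20) and 0.05 for the sum (SE 0.21). In edgeR 0 of the 5 genes were called, at 0% of all genes, 0 had an unadjusted p under 0.05, and DESeq2 and limma called 0. For the change from day 0 to day 1 the counts were also 0 by each of these measures, at 0% of all genes. The errors for Tpm1, Tpm2 and Tpm4 leave room for differences of more than 1.5-fold in either direction.

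Between the labels, the levels of Tpm1, Tpm2 and Tpm4 were higher in the KO groups at each day, described here without a test. The log2 difference of KO from WT was 0.57, 0.57 and 0.70 for Tpm1 on days 0, 1 and 3, 0.77, 0.74 and 0.72 for Tpm2, and 0.41, 0.42 and 0.40 for Tpm4. The day 0 values rest on WT library 3: without it they were 1.60 for Tpm1, 2.57 for Tpm2 and 0.98 for Tpm4. With it the libraries of the labels overlapped on day 0 in these 3 genes, while the other WT libraries lay below every KO library. On day 1 they overlapped in Tpm1 and Tpm2 but not in Tpm4, at 247 to 376 CPM in WT and 391 to 513 in KO. On day 3 none of the 3 genes overlapped, Tpm2 only barely (highest WT library 210.6 CPM, lowest KO library 210.9), as was the case for 29.2% of all tested genes on that day, against 10.1% on day 0 and 12.6% on day 1.

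Markers of stromal cells moved with these 3 genes across days, and in part within groups. The 12 stromal markers, among them the collagen gene Col1a1, summed to 91.4 to 4902 CPM on WT day 0, 239 to 2903 on WT day 1 and 11356 to 14644 on WT day 3. In KO they summed to 1081 to 3803 CPM on day 0, 2384 to 8558 on day 1 and 20240 to 29997 on day 3, and none of the 12 was at 0 in any group. Col1a1 alone was at 5496 ± 684 CPM on WT day 3 and 10694 ± 2103 on KO day 3. Of these markers, 8 of 12 were called higher on day 3 than on day 0 in WT and 11 of 12 in KO, and none lower. Over all tested genes, 23.7% were called higher in WT and 20.2% in KO.

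The WT day 0 library with the highest stromal sum, library 3, was also the highest of its group in Tpm1, Tpm2 and Tpm4. The one with the lowest, library 1 (double hyphen), was the lowest in Tpm1 and Tpm2. In every group with both title styles, the double-hyphen libraries had the lowest stromal sums and the lowest Tpm1 and Tpm2. On WT day 3, library 3 had a higher stromal sum than library 1 (11967 against 11356 CPM) but lower Tpm2 (109 against 118) and Tpm4 (628 against 650). On KO day 3 the stromal sum and these 3 genes had the same order of libraries. The 6 smooth muscle markers summed to 34.5 to 855 CPM on WT day 0 and 928 to 2411 CPM on WT day 3, and to 265 to 927 and 2700 to 4458 CPM in KO. The part of stromal cells in the rise of Tpm1, Tpm2 and Tpm4, or in their label differences, was not tested. In bulk libraries a change in the share of a cell type and a change in RNA per cell cannot be told apart.

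**Figure D5:**
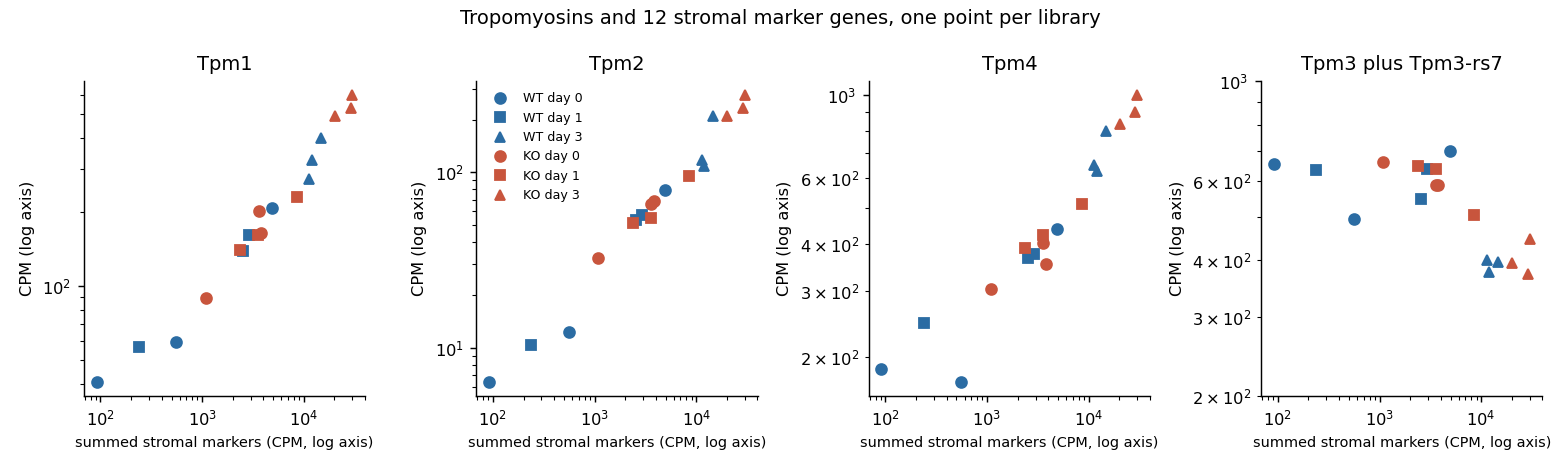
Points give one library each, with the summed CPM of 12 stromal markers on the horizontal axis and a tropomyosin gene or sum on the vertical axis, both on log scales. Circles, squares and triangles are days 0, 1 and 3, blue for WT and red for KO. Tpm1, Tpm2 and Tpm4 are higher in libraries with a higher stromal sum. The sum of Tpm3 and Tpm3-rs7 lies between 494 and 699 on days 0 and 1. On day 3, where the stromal sums are highest, it lies between 373 and 447.

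The study concerns YAP1, which acts through TEAD factors. The stretch around a RefSeq start of Tpm1 is shown, the only one of the 5 windows at hand with a TEAD core match. It is the 300-base window of RefSeq on GRCm38.p6, chr9:67049164-67049463, minus strand, from 250 bases before the start to 50 after it, with matches of GGAATG (TEAD core) and of GGAAA (NFAT core), on either strand, in capitals:
Tpm1: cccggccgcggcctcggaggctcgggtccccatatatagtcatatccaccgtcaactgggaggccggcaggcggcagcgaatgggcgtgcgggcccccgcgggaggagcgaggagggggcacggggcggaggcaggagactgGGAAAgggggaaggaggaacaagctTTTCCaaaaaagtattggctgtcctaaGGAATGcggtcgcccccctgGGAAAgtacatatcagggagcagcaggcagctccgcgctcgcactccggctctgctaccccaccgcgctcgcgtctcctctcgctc
RefSeq windows were at hand for 4 members (5 windows, a pair of them for Tpm3). In the placement given earlier, Tpm1 begins at position 67049406, so most of its window lies inside the gene as annotated. GENCODE vM21 gives Tpm1 21 transcripts, and its other starts were not searched. GGAATG occurred in the Tpm1 window and in none of the other 4, and in 14.7% of all 32851 windows. Tpm2 and Tpm4 rose with RANKL as Tpm1 did, and their windows held none of the motifs searched. GGAAA occurred in the Tpm1 window and both Tpm3 windows, and in 61.3% of all windows. TGANTCA (AP-1) occurred in 0 of the 5, against 7.81% of all, and the CArG box in 0, against 1.63%. A match of letters is not evidence of binding.

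Genes that act with tropomyosin on actin filaments were read beside the family. Of 44 genes listed, 37 were tested. The formin genes Diaph1, Diaph2 and Diaph3 were not found under these names, so their levels are unknown here. The others left untested (Lmod2, Lmod3, Myh14 and Tagln3) did not pass the filter on low counts. In WT 17 were higher and 2 lower on day 3 than on day 0, and the numbers in KO were also 17 and 2, where 23.7% of all genes were higher and 26.5% lower in WT and 20.2% and 22.3% in KO. When scaled by total counts, the genes called higher numbered 5153 of 7374 in WT and 4274 of 6237 in KO, against 3370 of 7143 and 2873 of 6046. The median log2 fold change of the 37 genes was 0.85 in WT and 0.79 in KO, beside -0.03 and -0.01 over all genes. The list holds all 6 of the smooth muscle markers whose sum moved with the days (Acta2, Tagln, Cnn1, Myh11, Myl9 and Lmod1), of which 2 were called higher under each label. Without them, a split made after the values were seen, 15 of 31 tested genes were higher and 2 lower under each label, with a median of 0.69 in WT and 0.69 in KO. The part of stromal or smooth muscle cells in these counts was not tested.

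Each count by role from here on stands beside the same shares of all genes. These were 23.7% higher and 26.5% lower in WT, and 20.2% and 22.3% in KO. Among the actins 3 of 6 rose in WT and 2 of 6 in KO. The cytoskeletal actin gene Actb was at 2533 ± 1097 CPM on WT day 0 and 2168 ± 880 on WT day 3, which is -0.22 on the log2 scale (adjusted p = 0.648). The smooth muscle actin gene Acta2 was at 221 ± 301 and 992 ± 536 CPM, a value of 2.16 that did not pass the test (adjusted p = 0.0803), and in KO at 443 ± 248 and 2142 ± 657 CPM (2.27, adjusted p = 0.0763).

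Myosin II pulls on tropomyosin-coated filaments. Its heavy chain gene Myh9 rose from 586 ± 82.0 to 1058 ± 81.6 CPM in WT (log2 fold change 0.85, adjusted p = 0.00466) and from 733 ± 122 to 1254 ± 363 CPM in KO (0.78, adjusted p = 0.0101). The light chain gene Myl6 rose in KO (0.44, adjusted p = 0.0374), and its value in WT was 0.25 (adjusted p = 0.201). Of the 7 tested genes of this role, 1 rose and 1 fell in WT, and 4 rose and 1 fell in KO.

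Of the 6 tested thin filament binders, 5 rose in WT and 4 in KO. Tagln2 rose from 131 ± 53.8 to 284 ± 11.6 CPM in WT (log2 fold change 1.12, adjusted p = 0.00263) and in KO (0.79, adjusted p = 0.0232). Tagln, a smooth muscle gene, had larger values that did not pass the test, 2.19 in WT (adjusted p = 0.0603) and 2.29 in KO (adjusted p = 0.0577). Of the 4 filament severing genes 3 rose under each label. The gelsolin gene Gsn rose by 0.80 in WT (adjusted p = 0.00223) and 0.89 in KO (adjusted p = 0.00156), while the cofilin gene Cfl1 had values of 0.14 (adjusted p = 0.448) and -0.0020 (adjusted p = 0.993).

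Tropomodulins and leiomodins bind the pointed end of tropomyosin-coated filaments, and 1 of the 5 tested rose under each label. This was Lmod1, a smooth muscle leiomodin gene, with 1.20 ± 1.94 CPM on WT day 0 and 11.4 ± 6.36 on WT day 3 (log2 fold change 3.21, adjusted p = 0.0116) and a value of 2.73 in KO (adjusted p = 0.0240). Tmod3, the tropomodulin gene with the highest counts, had values of -0.33 in WT (adjusted p = 0.0577) and -0.23 in KO (adjusted p = 0.196).

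Formins build unbranched actin filaments, and 2 of the 5 tested rose in WT, with 1 higher and 1 lower in KO. Inf2 rose from 36.1 ± 4.40 to 236 ± 25.6 CPM in WT (log2 fold change 2.71, adjusted p = 2.18e-05) and from 55.6 ± 6.05 to 211 ± 49.4 CPM in KO (1.92, adjusted p = 0.000323). Fmnl1 fell in KO (-0.80, adjusted p = 0.00705), with a value of -0.33 in WT (adjusted p = 0.186). In the actin-responsive transcription factor group of 4 genes, Srf rose under both labels (0.45, adjusted p = 0.0349, and 0.56, adjusted p = 0.0155). Mkl1, which encodes its cofactor MRTF-A, fell in WT (-1.02, adjusted p = 0.00702), with a value of -0.64 in KO (adjusted p = 0.0733).

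Tpm1, Tpm2 and Tpm4 followed one another closely over the libraries. Pearson's r of their log2 CPM over the 18 libraries was 0.987 for Tpm1 with Tpm2, 0.978 for Tpm1 with Tpm4 and 0.964 for Tpm2 with Tpm4, and over the 12 libraries of days 0 and 1 it was 0.986, 0.947 and 0.941. For Tpm3 with Tpm3-rs7 it was -0.774, a sign that follows from the choice of the pair by its opposite levels under the labels. The sum of both had an r of -0.705 with Tpm1, -0.649 with Tpm2 and -0.709 with Tpm4 over the 18 libraries. Over the 12 libraries of days 0 and 1 these values were -0.055, -0.049 and 0.099. The libraries share the steps between days, and no p is given. The 12 libraries also hold every double-hyphen library, and those had the lowest Tpm1 and Tpm2 of their groups.

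Outside the family, the genes most like Tpm1 were Mmp23 (r = 0.993), Rcn1 (0.992), Scarf2 (0.991), Msrb3 (0.991) and Sulf1 (0.991). Those most like Tpm2 were Cnn3 (0.993), a calponin of the thin filament binders above, Adcy6 (0.991), Tgfb3 (0.991), Ryk (0.990) and Tbx15 (0.989). Those most like Tpm4 were Nbl1 (0.991), Bmpr1a (0.987), Fkbp14 (0.986), P3h4 (0.986) and Zfp507 (0.984). Mmp23, for example, went from 7.41 to 47.7 CPM in the WT means of day 0 and day 3 and from 13.5 to 97.1 CPM in KO.

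The genes most like Tpm3 or its copy differed in level between the labels. This follows from the choice of the pair by its opposite levels under the labels. Most like Tpm3 were 9930111J21Rik2 (0.980), at 0.688 CPM on WT day 0 and 72.2 CPM on KO day 0, Sec22c (0.930), 5830417I10Rik (0.915), Olfr56 (0.909) and Gdf3 (0.904). Most like Tpm3-rs7 were Slc22a4 (0.978), at 69.6 CPM on WT day 0 and 12.3 on KO day 0, Gm12220 (0.969), Gm13767 (0.957), Tgtp1 (0.947) and Cgn (0.928). The sum was most like genes with equal levels under both labels: Shisa5 (0.961), Cd47 (0.961), Psme1 (0.960), B2m (0.959) and Gm15753 (0.958). B2m, for one, went from 3074 to 1248 CPM in WT and from 3050 to 1197 CPM in KO.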

How the data were processed

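RNA was purified on columns and SMARTer mRNA libraries were sequenced, and the authors deposited one table with counts and FPKM of each gene in 18 libraries. Per the labels StringTie and GRCm38 were used, and the study's methods name StringTie and Ballgown for the FPKM. The aligner, the program behind the counts and the treatment of reads that fit several places are not given in the sources used here. The deposited counts were whole numbers. The deposited FPKM equalled counts scaled by a fixed length per gene and by total counts, so they add no measurement. Columns with no sample numbered 0.

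Counts were fitted in R 4.3.3 with edgeR 4.0.16 (filterByExpr, TMM, quasi-likelihood F test), all 18 libraries as 6 groups, with Benjamini-Hochberg adjustment over 14241 genes, 2-sided, and a threshold of 0.05. The sum of Tpm3 and Tpm3-rs7 was fitted in place of its parts among 14240 genes. The fit was tested on simulated data. Pearson's r used log2 CPM with a prior count of 2. Shares of counts carry 95% Wilson intervals (scipy 1.17.1). Sequences came from GENCODE vM21 and, for promoters, RefSeq, with alignments by Biopython 1.88.

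Members, gene lists and tests were chosen with earlier results of these data known. The genes named were the 5 members and their sum, the pair with the highest mean CPM in each role of the actin list, the 5 genes most like each member, and Csf1r, Ctsk and Col1a1. Alternatives were other filters and scalings, DESeq2 1.42.0, limma 3.58.1 on log2(FPKM + 1) or log2(FPKM + 0.1), a fit on the groups compared, the title style as covariate or restriction, replicate blocks, and each library left out. To check pairing, deviations from group means were correlated between libraries of one number. In KO 2 of 3 pairs exceeded 0.1 for day 0 with day 1 (from 0.0536 up to 0.598). For day 0 with day 3 it was 3 of 3 (from 0.130 up to 0.398), and for day 1 with day 3 also 3 of 3 (from 0.156 up to 0.340). In WT 1 of 3 did for day 0 with day 3. What the numbers share is not labelled, and a block of the number within each label was added after the data were seen.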

Additional observations from a re-analysis of the deposited data

How the results depend on the processing

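Of the tested log2 fold changes for day 3 against day 0, those of Tpm4 kept direction and call under every alternative. Scaling mattered most for the falling genes. With total counts the called members numbered 3 for KO day 3 against day 0, where 6237 of 14241 genes were called. They numbered 2 for day 3 against day 1 in both labels, where 4374 genes were called in WT and 4179 in KO. The sum of Tpm3 and Tpm3-rs7 then changed from day 0 to day 3 by -0.29 in WT and -0.31 in KO. From day 1 to day 3 it changed by -0.33 and -0.27, none of these called. Day 3 against day 0 on log2(FPKM + 1) gave -0.22 in both labels with or without the filter, and on log2(FPKM + 0.1) -0.23 in WT and -0.22 in KO, none called, with 3 called members in KO each time. Day 3 against day 1 gave -0.22 in KO on both FPKM scales (with or without the filter) and -0.32 in WT without it, none called, and 2 called members in KO on log2(FPKM + 0.1). A fit on only the groups compared called 3 members in WT for day 3 against day 0.

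Within single-hyphen libraries, day 3 against day 1 gave 2 called members in WT, where 3305 of 15011 genes were called. In KO the sum changed by -0.28, with KO day 1 a lone library assumed to vary like the others. With the title style as covariate KO had 1 called member, where 2727 of 14241 genes were called. The label difference on day 1 was -1.94 for Tpm3-rs7, 1.64 for Tpm3 and -0.23 for the sum in single-hyphen libraries. In FPKM, label differences of the sum on days 0, 1 and 3 were -1.07, -1.17 and -1.07 on log2(FPKM + 1), filtered or not, and -1.08, -1.18 and -1.08 on log2(FPKM + 0.1), and that of Tpm3 on day 3 was 1.74 on log2(FPKM + 1), filtered or not. By construction FPKM also lowered the share of Tpm3, to 5.24%, 4.23% and 4.34% in WT and 36.7%, 35.4% and 33.3% in KO on days 0, 1 and 3.

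Values near 0 changed sign. The sum on WT day 1 against day 0 was 0.036 with total counts, 0.0019 in single-hyphen libraries, 0.099 on log2(FPKM + 1), filtered or not, and 0.099 on log2(FPKM + 0.1). The label difference in its response was -0.019 to day 3 with total counts and 0.010 to day 1 with DESeq2 size factors and in DESeq2. That response difference to day 3 for Tpm1 was -0.069 on log2(FPKM + 1), filtered or not, and -0.20 on log2(FPKM + 0.1), and in single-hyphen libraries it was 0.14 for Tpm2 and 0.075 for Tpm4.

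With the replicate number as a block the Tpm1 response difference was -0.094, and with the block within each label -0.18. The blocks left all 5 members called for day 3 against day 0 in both labels and the 4 for day 3 against day 1 in KO. In WT Tpm1 lost its call for day 3 against day 1 (1.30, adjusted p = 0.0647, and 1.11, adjusted p = 0.110, within label).

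With each library left out in turn, the called members numbered 3 to 5 in WT and 2 to 4 in KO for day 3 against day 0, 0 to 1 in WT for day 1 against day 0, and 2 to 4 in WT and 0 to 4 in KO for day 3 against day 1. The sum ranged from -0.15 to 0.079 on WT day 1 against day 0, from -0.098 to 0.064 in KO, and from -0.64 to -0.48 for KO day 3 against day 1. Its response difference ranged from -0.047 to 0.18 to day 3 and from -0.12 to 0.11 to day 1 (0.012 without the double-hyphen and 0.014 without the single-hyphen WT day 1 library numbered 1). That to day 3 ranged from -0.91 to 0.50 for Tpm1, from -1.85 to 0.42 for Tpm2 and from -0.59 to 0.21 for Tpm4. Except where a construction is named, the cause was not tested. Depth does not limit these genes, whose lowest count in a library was 78 (Tpm2, WT day 0); the spread between libraries does.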

Other observations

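The 25 genes whose 9 KO and 9 WT libraries did not overlap over the days, Tpm3 and Tpm3-rs7 included, lay on 10 chromosomes, with 13 higher in KO and 12 higher in WT. They were looked up after the values of the pair were seen. On chromosome 11 were 6 of them, and 5 of these lay between positions 48978889 and 54028090 (GRCm38): Olfr56, Tgtp1, 9930111J21Rik2, Gm12220 and Slc22a4. Chromosome 3 held 5, between positions 88775216 and 95129209: 5830417I10Rik, 1500004A13Rik, Tpm3, Cgn and Tmod4. Tmod4, a tropomodulin gene, had a mean of 0.112 CPM in the KO libraries and 1.55 CPM in the WT libraries. The neighbouring genes Ube4b and Nmnat1 on chromosome 4 were both lower in KO, Nmnat1 at 9.03 against 42.4 CPM. Genes that had 0 counts in every KO library were Gm12220 and Gm13767, at means of 1.60 and 8.47 CPM in WT. Zmat1 was not among the 25.

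Within 1 Mb of Tpm3, 11 of 60 tested genes did not overlap between the labels on day 0, 11 on day 1 and 29 on day 3, beside 10.1%, 12.6% and 29.2% of all tested genes. Around Tpm1 the numbers were 2, 2 and 6 of 17, around Tpm2 3, 5 and 7 of 32, and around Tpm4 2, 9 and 13 of 49.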
